A study of Mus musculus with 12 samples.

Results

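The epidermal growth factor (EGF) family and its ErbB receptors were followed in mouse jejunal enteroids that lack Hdac1 or Hdac2, the genes of a pair of class I histone deacetylases. The set held 10 of the 18929 genes listed in the deposited count tables, taken by gene symbol: the 6 ligands Areg, Ereg, Btc, Epgn, Tgfa and Hbegf, the 3 receptors Egfr, Erbb2 and Erbb3, and Lrig1. The rule names genes and uses no measured value, but it was set with earlier results of these data known. All 10 symbols were found in the table for Hdac2, and 9 in the table for Hdac1, where Epgn was not listed. Enteroids are epithelial cultures grown in Matrigel from intestinal crypts, and these were harvested for poly(A) RNA-Seq after 5 days. There were 12 libraries, 4 from control, 4 from Hdac1-/- and 4 from Hdac2-/- enteroids, here called control, Hdac1-deficient and Hdac2-deficient. Floxed alleles were removed by a villin-Cre transgene, which acts in intestinal epithelial cells, in mice of a mixed C57BL/6 J, 129SV and CD1 background, and the control cultures are called wild-type in the methods and villin-Cre control elsewhere in the study. Every culture received ENR medium, which contains EGF itself besides Noggin and R-spondin 1, so ErbB ligand was supplied from outside in all 3 groups.

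The methods describe crypts from 1 mouse for each genotype. The 4 libraries of a group are therefore not known to be 4 mice, p-values measure the spread between these libraries, and a mutation cannot be told apart from the mouse or culture line that carries it. Xist, the long RNA that coats an inactive X chromosome, was at 1.41 to 1.72 CPM (counts scaled to a library total of 1000000) in control libraries. It was at 776 to 1078 in the Hdac1-deficient and at 494 to 677 in the Hdac2-deficient ones. The labels give no sex of the mice, and a difference in sex cannot be told apart here from the genotype. Hdac1 itself fell from 90.5 ± 2.87 CPM (SD, n = 4) in control to 4.23 ± 0.841 in Hdac1-deficient enteroids. Hdac2 fell from 137 ± 4.39 to 75.9 ± 2.84 CPM in Hdac2-deficient enteroids, so reads of the Hdac2 gene were still counted there. Counts per gene do not show which exons these reads came from. The study reported loss of each gene's RNA and protein in these cultures by RT-PCR, Western blot and immunofluorescence. The genes of a library held 20693200 to 30658628 counts in all. Epithelial markers were high in every library, with a summed level of 8 genes between 6261 and 8319 CPM. The summed level of 8 mesenchymal markers, 4 of them listed, reached at most 7.48 CPM, that of 7 immune markers, 5 of them listed, 5.12 CPM, and that of 4 endothelial markers, 2 of them listed, 0.937 CPM. These are whole-enteroid libraries, in which fewer cells of a type and less RNA per cell cannot be told apart.

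EGF family ligands are made as membrane-anchored precursors, are cut free by surface proteases, and bind ErbB receptor tyrosine kinases, which pair up and pass the signal to the Ras-MAPK and PI3K-AKT cascades. Amphiregulin (Areg), TGF-alpha (Tgfa) and epigen (Epgn) bind EGFR, while epiregulin (Ereg), betacellulin (Btc) and HB-EGF (Hbegf) can also engage ERBB4. ERBB2 has no ligand of its own, ERBB3 has little kinase activity, and both act in pairs with other ErbB receptors. Lrig1 is a transmembrane protein that lowers ErbB receptor levels and marks crypt cells, where EGF sustains proliferation.

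Of the ligands, Ereg rose and Areg and Btc fell by more than 2-fold in Hdac1-deficient enteroids, whereas in Hdac2-deficient enteroids Ereg rose by more than 2-fold, Areg and Hbegf rose by less and Btc fell by less. Ereg was so low in control that it entered the tests only through the mutant libraries, and its values are best read as a description. Tgfa did not pass the test against control in either mutant. Of the receptors, Erbb3 and Egfr rose by 10.4% to 23.5% in both mutants, Erbb2 rose by 13.2% in Hdac2-deficient enteroids, and Lrig1 fell by 22.6% and 10.3% respectively. These statements rest on edgeR's quasi-likelihood F test with Benjamini-Hochberg adjustment over all tested genes, at an adjusted p of at most 0.05. Both mutants were compared with the same 4 control libraries.

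**Figure D1:**
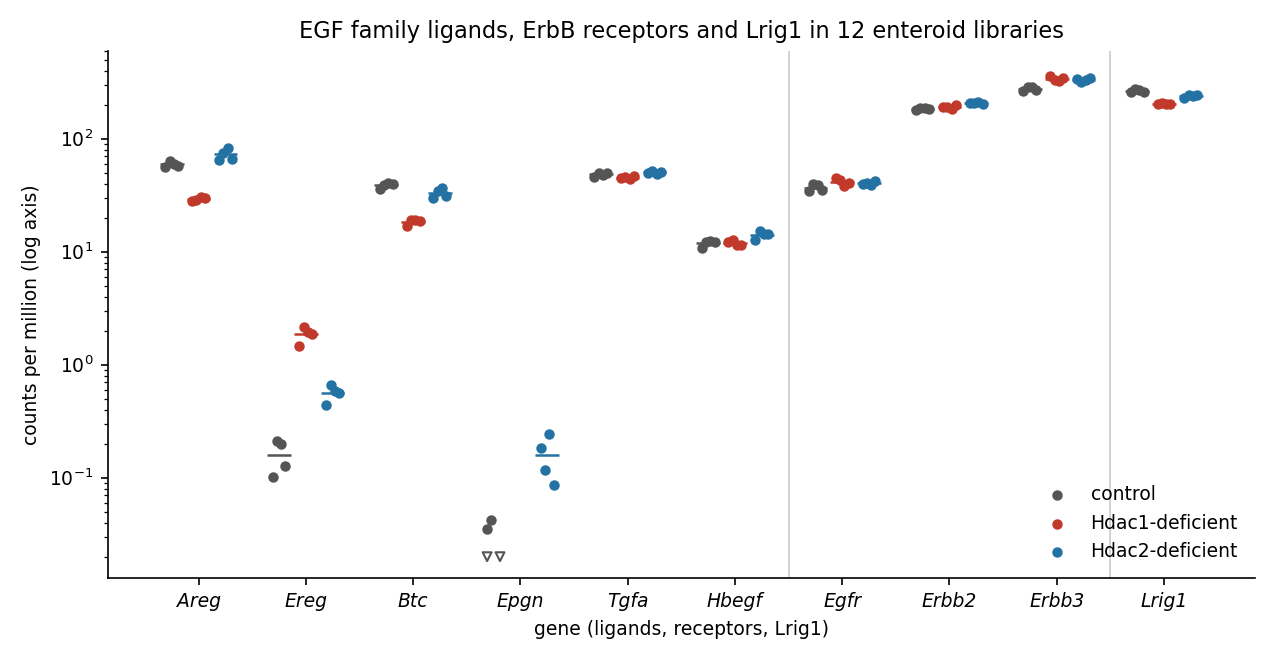
Level of each of the 10 genes in each library in CPM on a logarithmic axis, with 1 point per library, the group mean as a short line, and triangles at the bottom for libraries with 0 counts. Areg and Btc are lower in all 4 Hdac1-deficient libraries than in all control libraries, Ereg is higher in both mutants, and Epgn has no Hdac1-deficient points because that table does not list it.

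In the comparison of Hdac1-deficient with control enteroids, 9 of the 10 genes passed the filter on low counts. Of these, 1 (Ereg, with the limit given above) was more than 2-fold higher and 2 were more than 2-fold lower. Over all 14246 genes tested there, 6.87% were called higher and 3.71% lower by this rule. At any size, 3 of the 9 genes were higher and 3 lower, against 32.7% and 31.9% of all genes. The shares of the set at any size were near those of all genes. The median log2 fold change of the set was 0.03, against -0.00397 over all genes.

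In Hdac2-deficient enteroids, the same 9 genes were tested, and 1 (Ereg, with the limit given above) was more than 2-fold higher and 0 more than 2-fold lower, against 5.45% and 2.84% of the 14007 genes tested. At any size 6 of 9 were higher and 2 lower, against 31.4% and 30.9% of all genes. The median log2 fold change of the set was 0.18, against -0.00357 over all genes.

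The direct comparison of the mutants was fitted on all 12 libraries. In it, 1 gene of the set (Ereg, with the same limit) was more than 2-fold higher in Hdac1-deficient enteroids and 1 more than 2-fold lower. Of 14510 genes, 2.74% and 2.89% were called in this way. At any size 1 gene, again Ereg, was higher and 6 were lower in the Hdac1-deficient libraries, against 22.3% and 23.7% of all genes. The set had a median log2 difference of -0.16 and all genes one of 0.01.

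**Figure D2:**
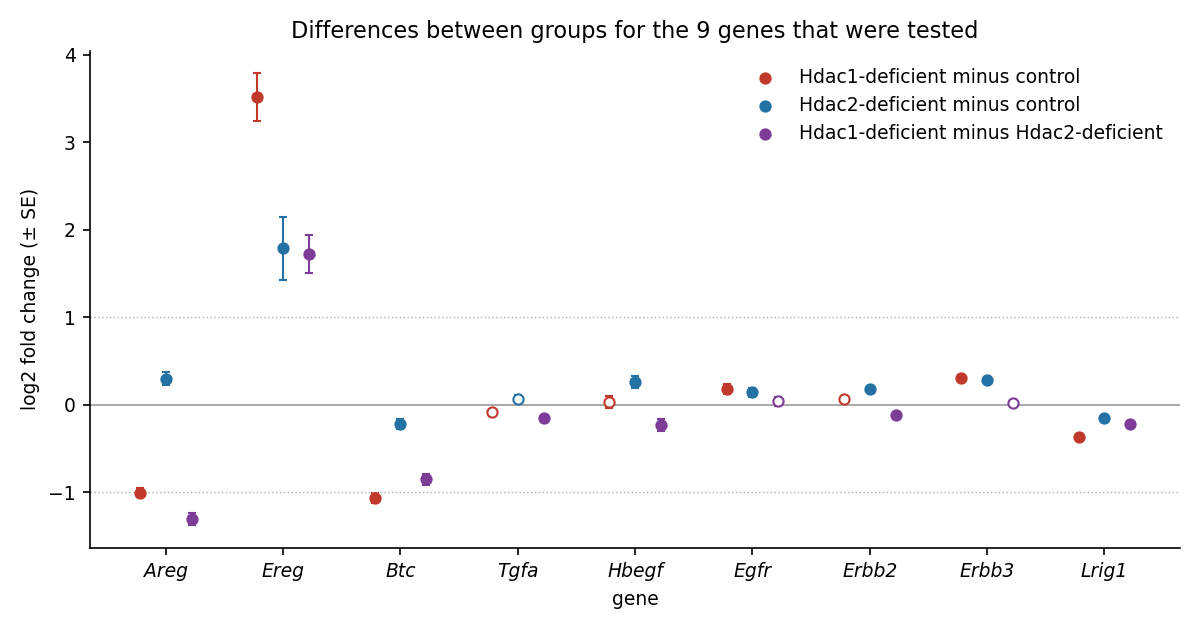
Log2 fold change with its standard error for the 9 genes that were tested, in the 3 comparisons given by colour, with filled points for an adjusted p of at most 0.05 and dotted lines at a 2-fold change in either direction. Ereg lies highest in both comparisons with control, at 3.52 and 1.79, and Areg lies at -1.01 against control in Hdac1-deficient enteroids but at 0.30 in Hdac2-deficient enteroids.

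Ereg (ENSMUSG00000029377) encodes epiregulin, a broad ErbB ligand. Its counts were 3, 6, 6 and 3 in control replicates 1 to 4, 39, 67, 59 and 51 in Hdac1-deficient and 12, 17, 12 and 13 in Hdac2-deficient replicates. No 2 groups overlapped, and the Hdac1-deficient libraries were the highest. On the CPM scale the groups held 0.159 ± 0.0540, 1.86 ± 0.295 and 0.563 ± 0.0916 (SD, n = 4 each).

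The log2 fold change of Ereg against control was 3.52 (SE 0.27, adjusted p = 6.79e-10, edgeR) in Hdac1-deficient and 1.79 (SE 0.36, adjusted p = 0.000194) in Hdac2-deficient enteroids. The mutants differed by 1.73, with the Hdac1-deficient libraries higher (SE 0.22, adjusted p = 2.7e-07). The gene passed the filter only through the mutant libraries, since 18 counts in all were found in control, with an exact Poisson 95% interval of 10.7 to 28.5 that covers counting error only. From summed counts, the ratio to control was 11.7 (7.21 to 20.1) in Hdac1-deficient and 3.50 (2.02 to 6.33) in Hdac2-deficient enteroids, with exact intervals for counting error. Even at its highest the message was scarce, and the antisense gene Gm19610, which overlaps its first bases, reached at most 3 counts in any library.

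Areg (ENSMUSG00000029378) encodes amphiregulin, an EGFR ligand. Its counts were 1692, 1822, 1794 and 1356 in control replicates 1 to 4, 749, 884, 931 and 817 in Hdac1-deficient and 1767, 1932, 1722 and 1531 in Hdac2-deficient replicates. In CPM this was 56.7 to 64.1 in control, 28.1 to 30.6 in Hdac1-deficient and 65.1 to 83.5 in Hdac2-deficient libraries. The 3 groups did not overlap on the CPM scale, with Hdac1-deficient libraries lowest and Hdac2-deficient libraries highest.

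Loss of Hdac1 went with a 2.01-fold fall of Areg, or -1.01 on the log2 scale (SE 0.05, adjusted p = 4.26e-13, edgeR). In Hdac2-deficient enteroids Areg rose 1.23-fold, a log2 fold change of 0.30 (SE 0.08, adjusted p = 0.00752). The mutants differed from each other by -1.31 (SE 0.07, adjusted p = 1.16e-10). The Hdac1 value sat at the edge of the 2-fold rule, and it came to -0.967, -0.987 and -0.996 without control replicate 2, Hdac1-deficient replicate 1 or Hdac1-deficient replicate 2, each time just inside 2-fold and with adjusted p-values of at most 1.6e-11 over the libraries left out. The Hdac2 value fell to 0.27 with an adjusted p of 0.058 without control replicate 1.

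Btc (ENSMUSG00000082361) encodes betacellulin. Its counts were 1079, 1102, 1224 and 944 in control replicates 1 to 4, 447, 584, 578 and 514 in Hdac1-deficient and 813, 887, 762 and 721 in Hdac2-deficient replicates. Control enteroids held 38.8 ± 1.87 CPM, Hdac1-deficient ones 18.3 ± 1.06 and Hdac2-deficient ones 33.2 ± 3.18 (SD, n = 4 each). All Hdac1-deficient libraries lay below all others, while the Hdac2-deficient range of 29.9 to 36.9 CPM overlapped the control range of 36.1 to 40.4.

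Btc changed by -1.07 on the log2 scale in Hdac1-deficient enteroids (SE 0.05, adjusted p = 8.85e-13, edgeR) and by -0.22 in Hdac2-deficient enteroids (SE 0.06, adjusted p = 0.00355). The direct difference between the mutants was -0.85 (SE 0.06, adjusted p = 1.83e-11). Thus Btc was lower in both mutants and lowest without Hdac1, whereas Areg lay on opposite sides of control. The ratio of Areg to Btc, per kb of exon, lay between 5.34 and 6.15 in control, 5.63 and 6.23 in Hdac1-deficient and 7.90 and 8.41 in Hdac2-deficient libraries, so only the Hdac2-deficient libraries stood apart from control in it.

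Epgn (ENSMUSG00000035020) encodes epigen. It had 0, 1, 0 and 1 counts in control replicates 1 to 4 and 5, 3, 5 and 2 in Hdac2-deficient replicates, and it passed the filter in no comparison. The sums of 2 and 15 counts gave a ratio of 8.74 with an exact 95% interval of 2.03 to 78.8 for counting error alone. All Hdac2-deficient libraries held more counts than any control library, but a library with 3 counts or fewer is at the floor of detection, which equals 0.0972 to 0.145 CPM in these libraries.

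Tgfa (ENSMUSG00000029999; chr6:86195223-86275719, plus strand) encodes TGF-alpha, a ligand of EGFR. It lay between 46.2 and 49.8 CPM in control, 43.7 and 46.5 in Hdac1-deficient and 49.2 and 51.2 in Hdac2-deficient libraries. Against control the log2 fold changes were -0.09 (95% interval -0.17 to -0.00496, adjusted p = 0.0754, edgeR) and 0.07 (-0.01 to 0.15, adjusted p = 0.14). The mutants did not overlap, and the Hdac1-deficient libraries were the lower, with a log2 difference of -0.16 (SE 0.04, adjusted p = 0.00167).

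Hbegf (ENSMUSG00000024486; chr18:36504927-36515805, minus strand) encodes HB-EGF. It held 11.9 ± 0.815 CPM in control enteroids, 11.99 ± 0.591 without Hdac1 and 14.1 ± 1.07 without Hdac2 (SD, n = 4 each). The Hdac2-deficient libraries, at 12.7 to 15.2 CPM, lay above the control libraries, at 10.7 to 12.6. The log2 fold change was 0.26 in Hdac2-deficient enteroids (SE 0.07, adjusted p = 0.0037, edgeR) and 0.03 in Hdac1-deficient enteroids (95% interval -0.11 to 0.16, adjusted p = 0.739), and the mutants differed by -0.23 (SE 0.07, adjusted p = 0.00777).

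Compared per kb of exon, Areg was the most abundant ligand message in every group. With the median transcript length instead, Tgfa (30.5) came above Areg (24.1) in Hdac1-deficient enteroids. The 5 ligands listed in all libraries summed to 67.3 ± 3.24 CPM per kb in control enteroids, 38.0 ± 1.05 without Hdac1 and 77.9 ± 7.85 without Hdac2 (SD, n = 4 each). The summed level was lower in every Hdac1-deficient library, at 36.6 to 39.0, than in any control library, at 64.0 to 71.6, while Hdac2-deficient libraries, at 70.7 to 87.6, overlapped control. The largest part of the drop was Areg, since its mean fell from 48.8 to 24.1 CPM per kb.

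The make-up of this ligand sum also differed. Areg supplied 71.2% to 73.7% of it in control libraries, 62.1% to 64.6% in Hdac1-deficient and 75.4% to 78.5% in Hdac2-deficient libraries, without overlap. Tgfa, at a mean of 7.45 CPM per kb in control and 6.96 in Hdac1-deficient enteroids, supplied 10.7% to 11.6% in control and 17.3% to 18.9% in Hdac1-deficient libraries. Ereg supplied 0.0567% ± 0.0171 in control enteroids, 1.18% ± 0.171 without Hdac1 and 0.175% ± 0.0223 without Hdac2, so it remained minor throughout. The ratio of Areg to Ereg counts ran from 299 to 564 in control, from 13.2 to 19.2 in Hdac1-deficient and from 114 to 147 in Hdac2-deficient libraries. No separate test was made of these sums and shares, and with the longest protein-coding transcript as the length the Areg share was 61.1% to 64.0%, 51.1% to 53.8% and 65.9% to 69.7% in the 3 groups.

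**Figure D3:**
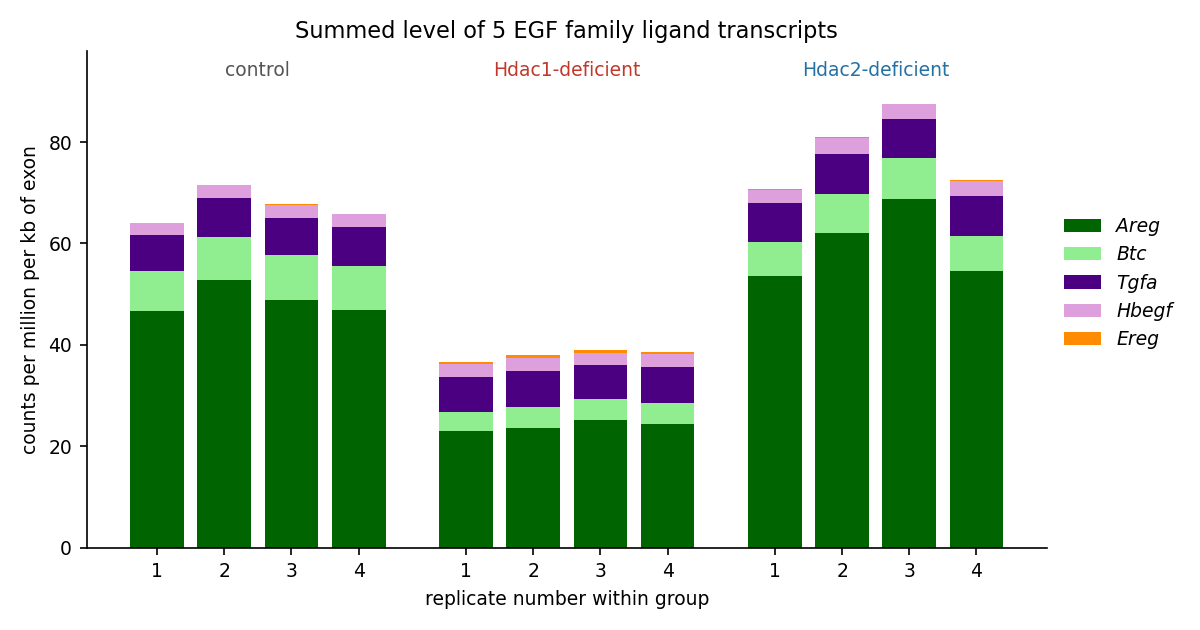
Summed level of 5 ligand messages in each of the 12 libraries, in CPM per kb of exon, stacked by gene and grouped by genotype, with Epgn left out because it is not listed for Hdac1. The 4 Hdac1-deficient bars end between 36.6 and 39.0, below all control bars, and Areg is the largest segment in every bar.

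Epgn, Ereg, Areg and Btc lie side by side on chromosome 5 (GRCm38, GENCODE M21), and are the only protein-coding genes annotated within the 376 kb that they span. Epgn occupies chr5:91027464-91035215, Ereg chr5:91074622-91093646 and Areg chr5:91139599-91148432 on the plus strand, and Btc chr5:91357261-91402994 on the minus strand. The start of Ereg is 65.0 kb from that of Areg, yet Ereg, at 3 to 6 counts per control library, rose in Hdac1-deficient enteroids while Areg fell. Beyond Btc, Parm1, which encodes a membrane protein, changed by -1.15 in Hdac1-deficient enteroids (SE 0.05, adjusted p = 3.38e-13, edgeR) and by -0.52 in Hdac2-deficient enteroids (SE 0.04, adjusted p = 1.01e-10). On the Epgn side, Mthfd2l, a mitochondrial folate enzyme, changed by -0.41 (SE 0.09, adjusted p = 0.000784) and -0.39 (SE 0.08, adjusted p = 0.000486). The noncoding Gm19619, between Areg and Btc, changed by -1.15 (SE 0.32, adjusted p = 0.00399) and -0.56 (SE 0.28, adjusted p = 0.0875) at 4 to 26 counts per library. Farther out, Rchy1, 809 kb from Areg, changed by -0.19 (SE 0.05, adjusted p = 0.00132) and 0.20 (SE 0.04, adjusted p = 0.000181). Cxcl1, beyond Mthfd2l, did not pass in Hdac1-deficient enteroids (0.33, SE 0.36, adjusted p = 0.437) at 3 to 16 counts per library. In the Hdac1 comparison Ereg, which passed the filter only through the mutant libraries, was thus the one tested ligand of the cluster to rise. Epgn was not tested, and the tested genes from Areg to Parm1 were lower.

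**Figure D4:**
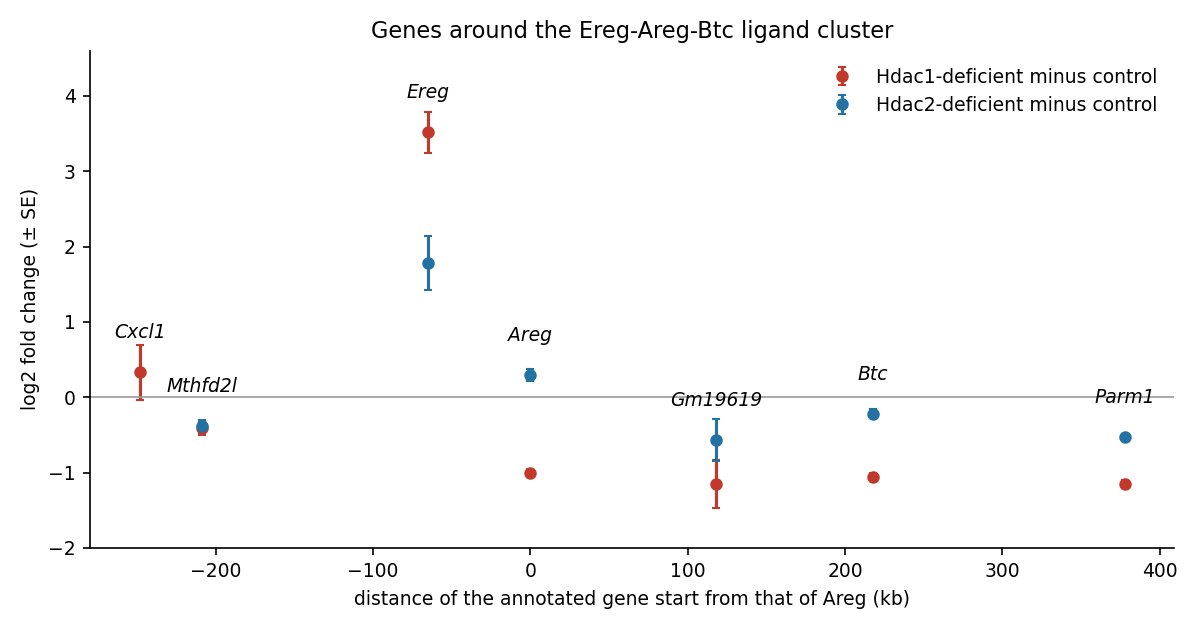
Log2 fold change against control with its standard error for the tested genes around the ligand cluster, placed by the distance in kb of the annotated gene start from that of Areg. Rchy1, which lies farther out, is not shown. Ereg stands at 3.52 and 1.79, while Areg, Btc and Parm1 lie between -1.01 and -1.15 in Hdac1-deficient enteroids and between -0.52 and 0.30 in Hdac2-deficient enteroids.

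Areg and Btc fell by about the same factor without Hdac1, and the 250 bases before their RefSeq starts (GRCm38.p6) are shown to set these neighbours side by side. Areg is given from chr5:91139349-91139598 on the plus strand and Btc from chr5:91402995-91403244 on the minus strand, both 5′ to 3′, with capitals for matches to 7 motifs searched on both strands.
Areg: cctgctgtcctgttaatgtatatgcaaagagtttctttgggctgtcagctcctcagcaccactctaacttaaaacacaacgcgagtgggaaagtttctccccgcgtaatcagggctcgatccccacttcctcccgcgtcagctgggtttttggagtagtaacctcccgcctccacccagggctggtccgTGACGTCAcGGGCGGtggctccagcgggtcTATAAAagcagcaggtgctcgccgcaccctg
Btc: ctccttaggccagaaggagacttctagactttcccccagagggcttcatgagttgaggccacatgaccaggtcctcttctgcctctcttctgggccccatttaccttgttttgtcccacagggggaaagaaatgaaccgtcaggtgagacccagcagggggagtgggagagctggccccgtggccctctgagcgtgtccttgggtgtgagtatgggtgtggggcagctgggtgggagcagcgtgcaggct
The Areg sequence held 1 TATA box (TATAAA), which began 31 bases before the start, 1 GC box (GGGCGG), 52 bases before it, and 1 full cyclic AMP response element (TGACGTCA), 61 bases before it. Of 32851 promoter windows of the same length, 12.4%, 32.7% and 1.55% held these motifs. The Btc sequence held none of the 7, the others being TGACGTAA (in 0.448% of windows), the AP-1 site TGAGTCA (4.46%), the CCAAT box (33.9%) and the E-box CACGTG (6.02%), which were not found in the Areg sequence either. The Areg window had 57.2% G and C with 15 CpG pairs and the Btc window 59.6% with 4, against medians of 52.4% and 6 over all windows. A match is a stretch of letters, not a measured binding site, and 7 of the 10 genes matched the promoter table.

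Among the receptors, Erbb3 (ENSMUSG00000018166; chr10:128567523-128589652, minus strand), the ErbB receptor with weak kinase activity, was the most abundant per kb of exon. It held 262, 287, 286 and 271 in control replicates 1 to 4, 356, 327, 326 and 346 in Hdac1-deficient and 340, 317, 332 and 344 in Hdac2-deficient replicates, in CPM. Both mutants lay above all control libraries and overlapped each other. Erbb3 rose by 0.30 on the log2 scale in Hdac1-deficient enteroids (SE 0.04, adjusted p = 7.3e-07, edgeR) and by 0.28 in Hdac2-deficient enteroids (SE 0.03, adjusted p = 4.32e-07). The difference between the mutants was 0.02, with a 95% interval of -0.05 to 0.09.

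Erbb2 (ENSMUSG00000062312; chr11:98412470-98437716, plus strand), the ligandless partner, held 178, 186, 186 and 183 CPM in control replicates 1 to 4, 192, 189, 182 and 197 in Hdac1-deficient and 208, 205, 209 and 201 in Hdac2-deficient replicates. The Hdac2-deficient libraries were the highest and overlapped neither other group. Erbb2 rose by 0.18 on the log2 scale in Hdac2-deficient enteroids (SE 0.03, adjusted p = 1.42e-05, edgeR). In Hdac1-deficient enteroids it changed by 0.06 (95% interval -0.00036 to 0.13, adjusted p = 0.0945), and the mutants differed by -0.12 (SE 0.03, adjusted p = 0.00233). Mien1, on the opposite strand, overlaps Erbb2 and was counted at 56.0 to 65.8 CPM in control, 51.4 to 55.9 in Hdac1-deficient and 71.8 to 73.1 in Hdac2-deficient libraries. It rose with Erbb2 in Hdac2-deficient enteroids, by 0.26 (SE 0.04, adjusted p = 1.45e-05). The libraries kept the strand, but how counting used it is not given in the sources used here, and the part of Mien1 in the Erbb2 counts was not tested.

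Egfr (ENSMUSG00000020122; chr11:16752203-16918158, plus strand), the receptor that binds the EGF family ligands most widely, was the least abundant of the 3 receptors per kb of exon. It lay between 34.1 and 39.8 CPM in control, 38.5 and 45.0 in Hdac1-deficient and 39.2 and 41.8 in Hdac2-deficient libraries, and the groups overlapped. The log2 fold changes were 0.18 (SE 0.06, adjusted p = 0.00817, edgeR) in Hdac1-deficient and 0.14 (SE 0.05, adjusted p = 0.0173) in Hdac2-deficient enteroids, and the mutants differed by 0.04 (95% interval -0.06 to 0.14). The Hdac2 value missed the threshold without control replicate 1, control replicate 4 or Hdac2-deficient replicate 4, with adjusted p-values of 0.0585, 0.0766 and 0.0661.

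Lrig1 (ENSMUSG00000030029; chr6:94604529-94700158, minus strand), the restraint on ErbB receptors, went the other way from Erbb3. It held 260, 276, 270.1 and 259 CPM in control replicates 1 to 4, 205, 205, 205 and 203 in Hdac1-deficient and 229, 242, 237 and 241 in Hdac2-deficient replicates. The groups did not overlap, with control highest and Hdac1-deficient libraries lowest. Lrig1 changed by -0.37 on the log2 scale in Hdac1-deficient enteroids (SE 0.03, adjusted p = 2.91e-09, edgeR) and by -0.16 in Hdac2-deficient enteroids (SE 0.03, adjusted p = 0.000146), and the mutants differed by -0.22 (SE 0.03, adjusted p = 1.06e-06). The overlapping gene Slc25a26, on the opposite strand, reached 9.66 CPM at most.

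Lrig1 also marks crypt cells, and markers of crypt base stem cells were, like it, lower in both mutants than in control, although not in the same order of the mutants. The summed level of 9 such markers was 3728 to 3930 CPM in control, 2151 to 2498 in Hdac1-deficient and 1823 to 2021 in Hdac2-deficient libraries, and 6 and 8 of the 9 were lower by the test in the 2 mutants, Tnfrsf19 being higher in both. Between the mutants 5 of the 9 were higher and 1 lower in Hdac1-deficient enteroids, where Lrig1 was lower. Lgr5 changed by -0.75 and -0.69 and Olfm4 by -0.82 and -1.23 on the log2 scale. Markers of enterocytes went the other way, with 8 of 8 higher in both mutants and sums of 7912 to 8529, 16138 to 18269 and 12793 to 14310.2 CPM. Sums of 7 goblet cell markers reached 1599 to 1849 CPM in control, 1731 to 1854 in Hdac1-deficient and 2672 to 2904 in Hdac2-deficient libraries, and those of 8 Paneth cell markers 2129 to 2490, 3115 to 3377 and 3391 to 3540.0. The goblet cell genes did not move as one in Hdac1-deficient enteroids, where 3 of 7 were higher and 1 (Tff3, -0.40) lower, against 6 higher and 0 lower in Hdac2-deficient enteroids. Of 7 tested Paneth cell genes 2 were higher and 1 (Ang4, -0.63) lower in Hdac1-deficient enteroids, against 5 higher and 0 lower in Hdac2-deficient enteroids. Of all tested genes, 32.7% were higher and 31.9% lower without Hdac1, and 31.4% and 30.9% without Hdac2. Between the mutants 22.3% were higher and 23.7% lower in Hdac1-deficient enteroids. The part of these cell types in the levels of the ligands, receptors and Lrig1 was not tested.

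On the scale of CPM per kb of exon, the order of the levels differed between the groups. In control, Areg (48.8 ± 2.83), Lrig1 (47.7 ± 1.45) and Erbb3 (46.0 ± 1.99) came first with overlapping ranges, before Erbb2 (35.2), Btc (8.57), Tgfa (7.45), Egfr (3.26), Hbegf (2.46) and Ereg (0.0385), each apart from its neighbour. In Hdac1-deficient enteroids, Erbb3 (56.3) stood alone at the top, Lrig1 (36.6) and Erbb2 (36.4) overlapped, and Areg (24.1) came below them. In Hdac2-deficient enteroids, Areg (59.8) and Erbb3 (55.4) overlapped above Lrig1 (42.5) and Erbb2 (39.5). The order of Btc and Tgfa also depended on the group, since on this scale Btc was above Tgfa in control, below it in Hdac1-deficient enteroids (4.06 against 6.96) and overlapping with it in Hdac2-deficient enteroids (7.35 against 7.75).

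The 3 receptors summed to 84.4 ± 2.94 CPM per kb in control enteroids, 96.4 ± 3.62 without Hdac1 and 98.5 ± 1.99 without Hdac2, and every mutant library was above every control library. Erbb3 supplied 54.5% ± 0.479 of the sum in control enteroids, 58.4% ± 0.634 without Hdac1 and 56.2% ± 1.01 without Hdac2, and Egfr between 3.50% and 4.04% in any library. These levels depend on the length taken for each gene. With the longest protein-coding transcript in place of all exons, Lrig1 (53.8) led in control, Hbegf (5.00) came above Egfr (3.62), and Btc (11.5) was above Tgfa (11.1) in Hdac2-deficient enteroids. With the median transcript length, Tgfa was above Btc in all 3 groups (32.7 against 20.2 in control, 30.5 against 9.55 in Hdac1-deficient and 34.0 against 17.3 in Hdac2-deficient enteroids). With that length the receptor order turned too, and the Egfr mean lay above those of Erbb3 and Erbb2 in every group (51.6 against 46.0 and 41.3 in control).

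Outside the set, the further EGF family ligands looked up were low or not listed in these libraries, apart from Nrg4. Nrg4 is not part of the ligand sum above, and in Hdac1-deficient enteroids its mean came near that of Hbegf (11.99 CPM). Of 9 further genes looked up, Lrig2 and Lrig3 among them, 5 were listed, and Erbb4, Nrg1, Nrg3 and Tdgf1 were in neither table. Nrg4, a neuregulin that binds ERBB4, rose from 5.13 ± 0.346 CPM in control to 11.4 ± 0.644 in Hdac1-deficient enteroids (log2 fold change 1.16, SE 0.08, adjusted p = 1.22e-10, edgeR) and to 7.61 ± 0.647 in Hdac2-deficient enteroids (0.59, SE 0.09, adjusted p = 8.84e-06). Egf itself was at 20 to 31 counts in control, 25 to 38 in Hdac1-deficient and 13 to 21 in Hdac2-deficient libraries. It did not pass against control without Hdac1 (0.36, adjusted p = 0.141, edgeR) or without Hdac2 (-0.37, adjusted p = 0.194), but differed between the mutants by 0.72 (SE 0.23, adjusted p = 0.0111). Lrig2 and Lrig3, relatives of Lrig1, were not low, at means of 17.9 and 44.6 CPM in control. Their log2 fold changes were -0.04 and 0.11 without Hdac1 and 0.09 and -0.01 without Hdac2, none of which passed the test.

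Among 10 tested genes of ligand shedding, 5 were higher and 1 lower in Hdac1-deficient enteroids, and 6 were higher and 0 lower in Hdac2-deficient enteroids. The shares of all tested genes that were higher and lower were 32.7% and 31.9% without Hdac1 and 31.4% and 30.9% without Hdac2. Adam17, the main sheddase of Areg and Ereg precursors, changed by -0.07 and -0.06 without passing the test. Adam10, which cleaves the Btc precursor, fell by 0.28 on the log2 scale in Hdac1-deficient enteroids (SE 0.03, adjusted p = 4.98e-07, edgeR). In Hdac2-deficient enteroids Adam10 changed by -0.07 without passing the test (adjusted p = 0.0763). Among the higher genes were Adam15, at 0.45 and 0.54, and Rhbdf2, at 0.33 and 0.19. Timp3, an inhibitor of ADAM17, rose from 0.582 to 3.40 CPM in Hdac1-deficient (log2 fold change 2.54, SE 0.18, adjusted p = 1.33e-10) and to 1.57 CPM in Hdac2-deficient enteroids (1.42, SE 0.22, adjusted p = 8.32e-06). The medians of the list were 0.28 and 0.18 on the log2 scale, against -0.00397 and -0.00357 over all genes.

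Of 20 genes that restrain or turn over ErbB receptors, 7 were higher and 6 lower in Hdac1-deficient enteroids and 8 higher and 5 lower in Hdac2-deficient enteroids, none by more than 2-fold. Among the lower genes were the feedback inhibitors Spry2, at -0.65 (SE 0.05, adjusted p = 2.89e-10, edgeR) and -0.50 (SE 0.05, adjusted p = 2.34e-08), and Spry4, at -0.78 (SE 0.12, adjusted p = 7.67e-06) and -0.54 (SE 0.12, adjusted p = 0.000394). The adaptor gene Sh3kbp1, at 22 to 69 counts per library, lay at -0.69 in Hdac1-deficient enteroids (SE 0.22, adjusted p = 0.00912). In Hdac2-deficient enteroids it lay at 0.36 without passing the test (SE 0.18, adjusted p = 0.0942). Between the mutants it differed by more than 2-fold, at -1.055 (SE 0.21, adjusted p = 0.000229). Errfi1, which blocks the EGFR kinase, rose by 0.17 and 0.41 on the log2 scale (adjusted p = 0.000258 and 5.17e-10). The medians were 0.04 and 0.08. Of all tested genes, 32.7% were higher and 31.9% lower without Hdac1, and 31.4% and 30.9% without Hdac2.

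Of 19 adaptors and members of the Ras-MAPK cascade, 8 were higher and 2 lower in Hdac1-deficient and 5 higher and 3 lower in Hdac2-deficient enteroids, none by more than 2-fold, with medians of 0.10 and 0.01. Of all tested genes, 32.7% were higher and 31.9% lower in the first comparison and 31.4% and 30.9% in the second. Ksr1, a scaffold of the cascade, changed most, by 0.66 (SE 0.05, adjusted p = 3.34e-10, edgeR) and 0.52 (SE 0.05, adjusted p = 6.46e-09). In the PI3K-AKT arm, 5 of 9 tested genes were higher in each mutant, with medians of 0.14 and 0.10. Pik3r3, a regulatory subunit, rose by 0.91 (SE 0.06, adjusted p = 1.07e-10) and 1.06 (SE 0.06, adjusted p = 1.33e-12).

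Genes known to respond to MAPK signalling moved in part alike and in part differently in the mutants. Every tested gene of this list that was lower in Hdac2-deficient enteroids was also lower in Hdac1-deficient ones. Every gene that was higher in Hdac1-deficient enteroids was also higher in Hdac2-deficient ones. In Hdac1-deficient enteroids 3 of 25 tested were higher and 14 lower, the median log2 value being -0.19, while in Hdac2-deficient enteroids 10 of 24 were higher and 8 lower, with a median of 0.04. Between the mutants 2 of 25 were higher and 14 lower in Hdac1-deficient enteroids, with a median of -0.30 against 0.01 over all genes. The shares of all tested genes were 32.7% higher and 31.9% lower, 31.4% and 30.9%, and 22.3% and 23.7% in these comparisons. Dusp4, an ERK phosphatase, fell in both mutants, by 1.53 and 1.17 on the log2 scale (SE 0.05 and 0.08, adjusted p = 9.03e-15 and 5.37e-08, edgeR), as did Etv4 and Phlda1. Etv1 rose in both, by 1.04 and 0.90 (SE 0.25 and 0.27, adjusted p = 0.0013 and 0.0071, edgeR), at 8 to 26 counts per library. The immediate early gene Junb lay at -0.35 without Hdac1 and at 0.48 without Hdac2, and differed between them by -0.84 (SE 0.04, adjusted p = 7.28e-16). Fos likewise lay at -0.25 and 0.59 and differed by -0.84 (SE 0.07, adjusted p = 5.03e-10), and Plaur at 0.12 and 0.88 with a difference of -0.76 (SE 0.08, adjusted p = 1.18e-08). Areg, Fos and Junb thus shared a pattern of signs, below control without Hdac1 and above it without Hdac2. Few genes of the list passed the test in both mutants with opposite signs in this way.

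**Figure D5:**
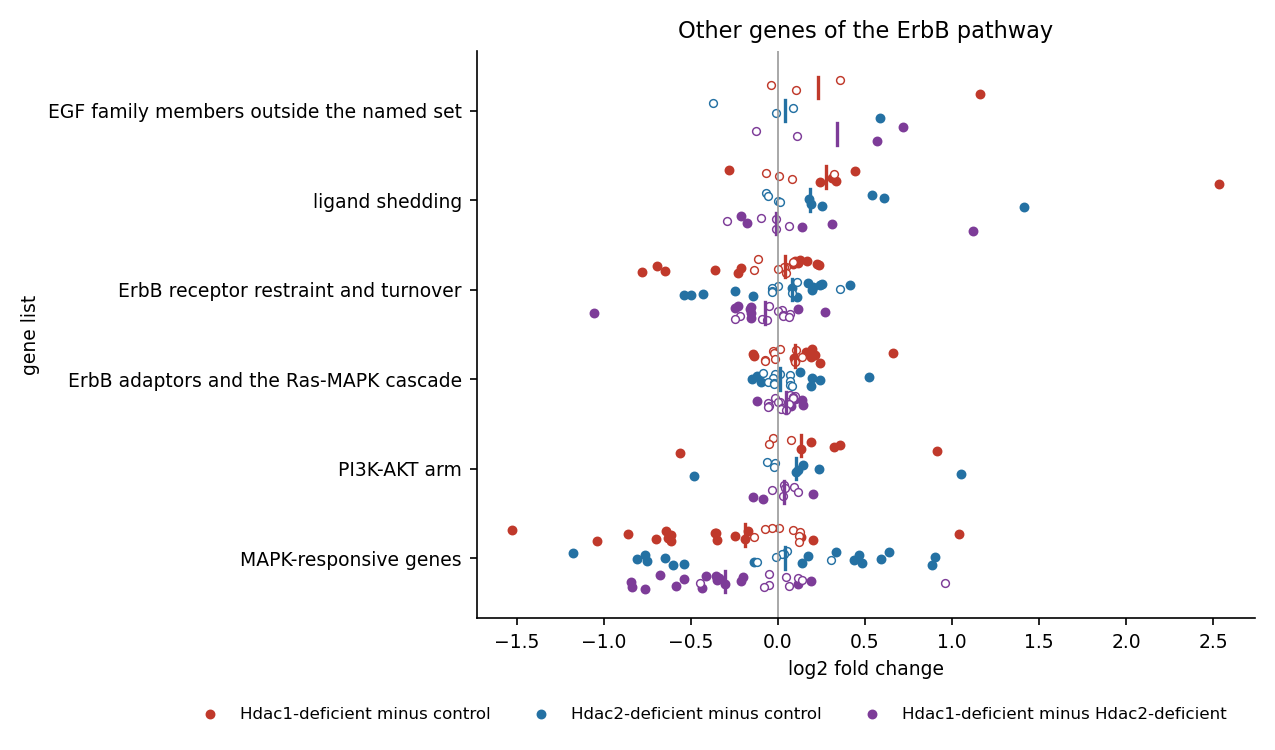
Log2 fold change of every tested gene of 6 lists around the ErbB pathway, with 1 point per gene, colour for the comparison, filled points where the adjusted p was 0.05 or less, and a vertical bar for each list's median. The medians of the MAPK-responsive genes lie at -0.19, 0.04 and -0.30 in the 3 comparisons, and Timp3, in the shedding list, is the point farthest to the right, at 2.54.

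Genes whose log2 CPM followed the ligands most closely over the 12 libraries were looked up by Pearson's r, as a description in which the differences between the 3 groups set most of the values. Ereg was followed by Arl4d (r = 0.989), Trip6 (0.989) and Eps8 (0.985, an EGFR kinase substrate). Trip6 rose from 1.23 CPM in control to 8.64 and 3.14 CPM in Hdac1-deficient and Hdac2-deficient enteroids. Areg was followed by the cystine transporter gene Slc7a11 (r = 0.995), the prolyl hydroxylase gene Egln3 (0.992) and Bhlhe40 (0.991), and Slc7a11 held 22.4, 6.99 and 31.9 CPM in control, Hdac1-deficient and Hdac2-deficient enteroids. Btc was followed by Eif4ebp1, Gm4875 and the asparagine synthetase gene Asns (r = 0.989 each), and Asns held 242, 106 and 214 CPM. Within the set, Btc and Lrig1 (r = 0.947), Areg and Btc (0.913) and Areg and Tgfa (0.857) were the closest pairs, and Ereg and Lrig1 (-0.940) the most opposed.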

How the data were processed

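RNA-Seq of 12 mouse enteroid libraries gave paired reads of 100 bases, which the authors aligned to GRCm38 with STAR 2.4.0f1 (per the submitters' processing notes). The authors deposited whole-number counts per gene for each mutant beside the same 4 control libraries, listing genes with at least 10 counts over 8 libraries. The counting program is not given in the sources used here. Their 16 normalized columns, log2 fold changes and p-values were not used. Counts were tested with edgeR 4.0.16 in R 4.3.3 (quasi-likelihood F test, TMM, filterByExpr), in fits of 8 libraries against control and of all 12 between the mutants, after the script was tested on simulated data. Genes were called at an adjusted p up to 0.05 with more than a 2-fold change. Samples were grouped by their labels. CPM used library sizes over the 17972 genes in both tables and TMM factors. Lengths came from GENCODE M21. All 10 genes were named, with up to 3 genes per direction from each of 6 pathway lists and 3 genes closest to Ereg, Areg and Btc. Members and lists were chosen with earlier results of these data known. Replicate numbers did not pair the samples (correlations -0.0455 to 0.0913). Alternatives used DESeq2 1.42.0, other scaling, filters, gene lengths and libraries left out. Python 3.11.15, pandas 2.3.3, scipy 1.17.1 and matplotlib 3.10.9 made tables and figures. The result for 1 gene of the pathway lists is not reported here.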

Additional observations from a re-analysis of the deposited data

Results flagged for a closer look

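The level of Btc in Hdac1-deficient replicate 1 was 16.8 CPM, below the other Hdac1-deficient libraries at 18.7 to 19.0, and this gap took up 0.866 of the group's range, above Dixon's limit for groups of 4. It was 1 of 29 groups of 4 that were looked at in this way, and chance flags about 5% of them. The log2 fold change of Btc against control stayed between -1.10 and -1.03 whichever library was left out.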

How the results depend on the processing

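Of 440 refits of single-gene fold changes under other tests, scalings, filters, fits and with each library left out, 432 kept direction and side of an adjusted p of 0.05, 5 no longer reached it, 3 newly did, and 0 reversed a value that passed. The 2-fold limit is not part of this count, and Areg fell inside it in 3 refits of the Hdac1 comparison (-0.967 to -0.996). Tgfa passed in Hdac1-deficient enteroids in the fit of all 12 libraries (adjusted p = 0.0281) and without control replicate 1 (0.0249), as did Erbb2 without Hdac1-deficient replicate 3 (0.0366), and Egfr missed the threshold in Hdac2-deficient enteroids with library size alone (0.0619). Without a filter on low counts, 2335 instead of 1507 genes were called in Hdac1-deficient and 1792 instead of 1162 in Hdac2-deficient enteroids, and the set had 2 calls in Hdac2-deficient enteroids, Epgn joining Ereg. With a mean of at least 10 counts it had 0 there, since that filter removed Ereg. With libraries left out in turn, the set had 2 to 3 calls in Hdac1-deficient enteroids. The replicate block gave 3, 1 and 2 calls of the set (Hdac1 and Hdac2 against control, and the mutants compared), as did the fit without it. Over all genes it gave 1501, 1158 and 812 calls, against 1507, 1162 and 816 without it. Levels per kb were also computed with the median transcript length, which short fragments lower, so that Lrig1 came to 380 CPM per kb in control and Egfr to 51.6. The longest protein-coding transcript was tried after seeing the data. Depth limits Ereg in control and Epgn throughout, at 0 to 6 counts per library.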
